A study of Mus musculus with 4 samples.

Results

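Cells with *Lhx6* transcripts were studied in single-cell RNA-Seq of the developing mouse cortex. A cell was taken when its barcode was not found in all 4 libraries, when it held at least 1 UMI (a counted molecule) of *Lhx6* and of at least 1 of *Dlx1*, *Dlx2*, *Dlx5* and *Dlx6os1*, and when it held none of *Top2a*, *Neurog2* and *Ebf1*. Of 6562 cells, 221 met this rule, 54 of library WT3, 81 of WT6, 55 of Het5 and 31 of Het9. The 4 libraries came from cortical cells of single fetuses at embryonic day E18.5, sorted for the neuronal surface marker CD24 and against the blood marker CD45, with 2 *Setd5*+/+ (WT3 and WT6) and 2 *Setd5*+/- (Het5 and Het9) fetuses of strain C57BL/6J. *Setd5*+/- fetuses carried 1 copy of a GFP knockout allele of *Setd5*, a gene of the SET-domain family, in every cell. Since members were selected on measured values of the 8 genes of the rule, levels of those genes are given below as description only.

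*Lhx6* encodes a LIM-homeodomain factor of neurons born in the medial ganglionic eminence, a ventral proliferative zone of the embryonic forebrain. *Nkx2-1* acts upstream of it in that zone. Cells bound for the cortex lose *Nkx2-1* as they leave, keep *Lhx6* and mature into parvalbumin or somatostatin interneurons, whereas other *Lhx6* neurons settle in the striatum and basal forebrain, where *Nkx2-1* and *Lhx8* can persist. The *Dlx* homeobox genes mark the GABAergic neurons of all ganglionic eminences.

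*Lhx6* was sparse even in the selected cells. A single *Lhx6* UMI was found in 104 of them, 2 UMIs in 56 and 3 or more in 61, with 8 in the richest cell. Mean *Lhx6* level was 5.12 UMIs per 10000 in WT3, 5.98 in WT6, 4.59 in Het5 and 6.55 in Het9. All 4 *Dlx* genes were present in 88 members, and 10 members had exactly 1 of them. Just outside the rule lay 1195 cells that met every other condition with *Lhx6* at 0. Of the 384 cells with an *Lhx6* UMI and an accepted barcode, 121 were left out for *Top2a*, 28 for *Neurog2*, 10 for *Ebf1* and 23 for lack of a *Dlx* gene, some for more than 1 reason.

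The median depth of the members was 3974 UMIs per cell, from 3427 in Het9 to 4192 in Het5, below the 5730 of all cells. Library totals ran from 8205330 to 11742956 UMIs. Scrublet called 2 members doublets, and 4 members carried a barcode found in 2 or 3 libraries. In the series, 224 cells had a barcode present in all 4 libraries and were kept out. A value for a library is the mean over its cells of UMIs per 10000, and intervals on shares cover counting error only.

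The markers given for this cell type were *Lhx6*, *Dlx6os1*, *Erbb4* and *Npy*, and the name called the cells migrating interneurons. *Npy*, a neuropeptide of maturing interneurons, was found in 69 members (31.2%, 95% exact interval 25.2 to 37.8), and *Erbb4*, the neuregulin receptor of migrating interneurons, in 67 (30.3%). In deep-layer excitatory cells of the same libraries, which should lack both genes, the shares were 2.46% and 1.12% at a median depth of 5638 UMIs. However, *Nkx2-1* was present in 124 members (56.1%) and *Lhx8* in 73 (33.0%), against 2.29% and 0.895% of the excitatory cells. *Cxcr4*, a chemokine receptor of migrating interneurons, was found in 3 members (1.36%), near the 1.23% of the excitatory cells. *Ackr3*, the partner receptor for the same chemokine, was found in 36 (16.3%, against 1.96%). The cells are therefore called *Lhx6*-positive cells here. No migration was measured.

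Another pair of *Dlx*-positive classes served for comparison. The first held 287 cells with *Htr3a* or *Nr2f2*, genes of the caudal ganglionic eminence, and no *Lhx6*. The second held 200 cells with *Sp9* and *Gad2* and without *Lhx6*, *Htr3a*, *Nr2f2* or *Zic* genes. The same genes were required to be 0 as in the members, and each class was compared with the members within libraries. Tests were made with limma on log2(mean UMIs per 10000 + 0.1), with Benjamini-Hochberg adjustment, and left out the genes used to choose either class. Against the *Htr3a* or *Nr2f2* cells, 137 of 7763 genes were higher in *Lhx6*-positive cells (1.76%) and 188 lower (2.42%). Against the *Sp9* *Gad2* cells, 110 of 7514 genes were higher (1.46%) and 100 lower (1.33%). Higher against both were 53 of 7324 genes (0.724%), which were 38.7% and 48.2% of the respective calls, and lower against both were 32 (0.437%). The comparisons share the *Lhx6*-positive cells.

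*Nkx2-1* (chr12:56531958-56536908 in GRCm38) averaged 4.11 UMIs per 10000 in members of WT3, 4.08 in WT6, 4.49 in Het5 and 3.78 in Het9. In the *Htr3a* or *Nr2f2* cells its level was 0.563, 1.11, 0.0682 and 0.252, and in the *Sp9* *Gad2* cells 0.454, 0.814, 0.749 and 0.138. Members were thus above both classes in all 4 libraries, with log2 differences of 3.17 (SE 0.23, adjusted p = 6.05e-16) and 2.90 (SE 0.22, adjusted p = 4.51e-15). *Lhx8* (chr3:154306294-154330659), which specifies basal forebrain cholinergic neurons, stood at 2.14, 4.07, 3.93 and 0.370 in the members. The Het9 value was the lowest, at 3 of 31 cells. *Lhx8* was 0 in 3 of the 4 libraries of the *Htr3a* or *Nr2f2* cells and 0.323 in WT6, and the log2 differences were 3.84 (adjusted p = 1.81e-14) and 2.75 (adjusted p = 1.97e-08).

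Of 33 tested genes in a list of patterning and lineage transcription factors, 14 were higher and 7 lower than in the *Htr3a* or *Nr2f2* cells, with a median log2 difference of 0.32 against -0.04 over all genes tested. Against the *Sp9* *Gad2* cells, 16 of 33 were higher and 6 lower, with a median of 0.68 against 0.04. *Sox6*, which acts downstream of *Lhx6* in positioning interneurons, was 1.97, 2.27, 2.86 and 2.09 in the members of WT3, WT6, Het5 and Het9. Every library of the other classes was below these values, the highest being 1.6 in Het5 *Sp9* *Gad2* cells (log2 differences 1.88 and 1.72). *Maf*, a bZIP factor of cortical interneurons, was 1.68, 1.73, 1.48 and 2.09 in the members, and its log2 differences were 2.69 (adjusted p = 1.77e-12) and 1.38 (adjusted p = 3.15e-05). *Etv1*, *Mef2c*, *Cux2*, *Tox* and *Sox11* were higher against both classes too. The *Mef2c* call against the *Sp9* *Gad2* cells was lost under 8 of 12 alternatives (adjusted p from 0.0121 to 0.563), also without WT3 or Het5, and the *Cux2* call under 6 of 12 (0.00327 to 0.292), also without WT6 or Het5. Against the *Htr3a* or *Nr2f2* cells *Tox* did not pass without WT3 (0.95, adjusted p = 0.0667). *Zeb2*, which represses *Nkx2-1* in cortical interneurons, passed against the *Sp9* *Gad2* cells (0.73, adjusted p = 0.00118) but not against the *Htr3a* or *Nr2f2* cells (0.32, adjusted p = 0.172).

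The factors that were lower in *Lhx6*-positive cells belong to other territories. *Meis2*, a homeobox gene of the lateral ganglionic eminence, was 1.76, 1.31, 1.81 and 2.24 in members, against 6.03 to 8.70 in the *Htr3a* or *Nr2f2* cells and 15.6 to 26.1 in the *Sp9* *Gad2* cells. Its log2 differences were -2.02 (SE 0.14, adjusted p = 7.74e-17) and -3.48 (SE 0.14, adjusted p = 2.48e-27). *Six3*, a factor of striatal neurons, was 0.0321 to 0.589 in the members and 2.3 to 6.31 in the *Sp9* *Gad2* cells (log2 difference -3.97). *Nr2f1*, a nuclear receptor gene related to *Nr2f2*, was 0.529 to 1.46 in members and 4.47 to 6.44 in the *Htr3a* or *Nr2f2* cells (-2.42), and did not pass against the *Sp9* *Gad2* cells (0.25, adjusted p = 0.758). *Pax6* was lower against both (-2.76 and -1.99). *Sp8*, a factor of caudal and lateral lineages, was found in 2 of 221 members, against 11.5% of the *Htr3a* or *Nr2f2* cells.

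**Figure D1:**
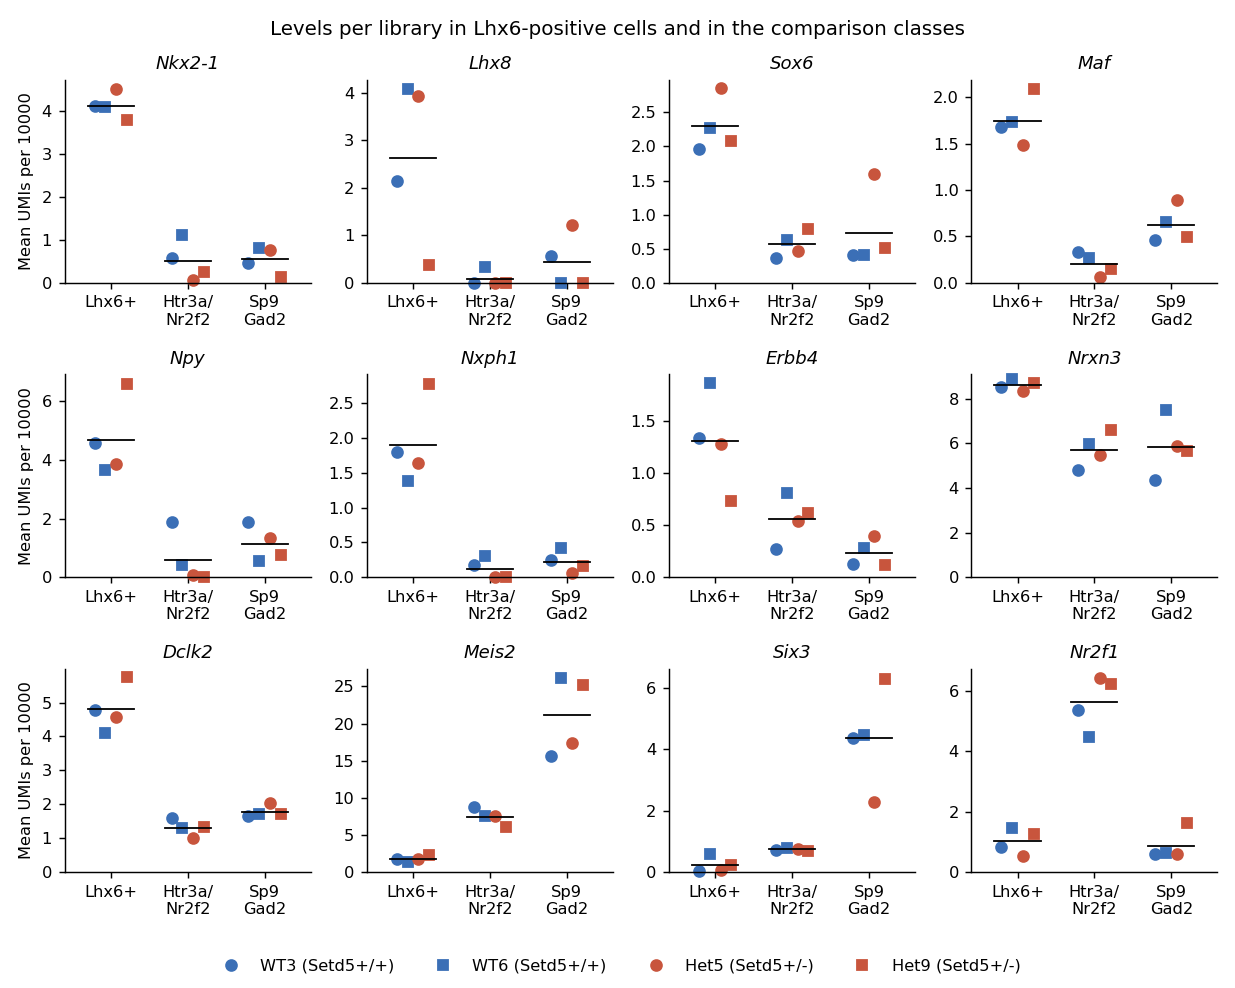
Mean UMIs per 10000 (vertical axis) of 12 genes in each library, for Lhx6-positive cells, Htr3a or Nr2f2 cells without Lhx6, and Sp9 Gad2 cells without Lhx6 or Zic; blue points are Setd5+/+ and red Setd5+/- libraries, and the black line is the mean of 4 libraries. *Nkx2-1*, *Sox6*, *Maf*, *Npy*, *Nxph1*, *Nrxn3* and *Dclk2* were higher in the Lhx6-positive cells of every library, *Lhx8* was 0.370 in Het9, and *Meis2* and *Six3* were highest in the Sp9 Gad2 cells.

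Among subtype and peptide genes, which mark mature interneuron classes, 27 of 30 listed genes were in the table and 7 were tested against the *Htr3a* or *Nr2f2* cells. *Npy*, *Sst* and *Nxph1* were higher and *Cnr1* lower, with a median log2 difference of 1.21. *Cnr1* did not pass without WT6. *Npy* (chr6:49822710-49829507) was 4.56, 3.67, 3.84 and 6.58 in members of WT3, WT6, Het5 and Het9, against 1.89, 0.410, 0.0911 and 0.0209 in the *Htr3a* or *Nr2f2* cells. It was 1.87, 0.572, 1.33 and 0.743 in the *Sp9* *Gad2* cells. The members were highest in every library (log2 differences 3.57 and 2.04, adjusted p = 2.14e-14 and 1.94e-11). *Nxph1*, which encodes a secreted ligand of neurexins, was 1.79, 1.38, 1.64 and 2.77 in the members and at most 0.414 in a library of the other classes (3.40 and 2.72). Against the *Sp9* *Gad2* cells these 2 genes were the ones called of 5 tested, with a median of 1.61. *Sst*, the peptide of the later somatostatin class, had 82 UMIs in 4 members, and 70 of those UMIs were in 1 cell of WT3. Its call against the *Htr3a* or *Nr2f2* cells (1.85, adjusted p = 0.00942) was lost under 5 of 13 alternatives (adjusted p from 2.67e-08 to 0.425), among them leaving out Het5, and had no value without WT3. *Calb1* did not pass in either comparison (1.21 and -0.47).

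Of 33 tested migration and guidance genes, 8 were higher and 4 lower than in the *Htr3a* or *Nr2f2* cells (median 0.09). Of 30 tested, 6 were higher and none lower than in the *Sp9* *Gad2* cells (median 0.42). In the first comparison the *Cdk5r1* call was lost under 11 of 14 alternatives, also with any library left out. *Cntn2* was lost there under 6 of 14, *Nrcam* under 4 of 14 and *Sema3c* under 3 of 12. In the second, *Ntrk2* was lost under 4 of 12. *Dclk2*, a doublecortin-like kinase of the microtubule cytoskeleton, was 4.79, 4.11, 4.58 and 5.75 in the members and 0.990 to 2.04 in the other classes (1.81 and 1.38, adjusted p = 2.14e-14 and 3.23e-09). *Erbb4* was 1.35, 1.87, 1.28 and 0.739 in the members, and the difference from each class passed (1.10, adjusted p = 0.000957, and 2.1, adjusted p = 4.64e-07). Against the *Htr3a* or *Nr2f2* cells it was 0.66 with at least 2 *Dlx* genes required (adjusted p = 0.291) and 0.88 with at least 2 *Lhx6* UMIs (adjusted p = 0.0876). The Het9 members, at 0.739, lay below the WT6 *Htr3a* or *Nr2f2* cells, at 0.813. *Efna5*, an ephrin ligand, was higher against both (1.65 and 1.23), whereas *Epha4*, an ephrin receptor, was higher against the *Htr3a* or *Nr2f2* cells (1.04) and *Epha5* against the *Sp9* *Gad2* cells (1.03). The *Efna5* call against the *Sp9* *Gad2* cells was lost under 6 of 12 alternatives (adjusted p from 0.00584 to 0.186), also without WT3, WT6 or Het9. *Ackr3* and *Robo1*, the latter a Slit receptor, were higher against the *Htr3a* or *Nr2f2* cells (1.67 and 1.07). The *Ackr3* call was lost with at least 2 *Lhx6* UMIs (1.35, adjusted p = 0.0770). The *Robo1* call was lost under 7 of 14 alternatives (adjusted p from 0.0233 to 0.540), among them leaving out WT6 or Het5. *Nrp1*, a semaphorin receptor, was lower there (-1.03), and its difference was 0.90 (adjusted p = 0.202) once cells with both *Neurod2* and *Neurod6* were left out and -0.60 (adjusted p = 0.204) without WT3, and it did not pass without Het5 (-1.11, adjusted p = 0.0642).

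Of the genes of GABA synthesis and transport, *Gad1*, a GABA-synthesising enzyme, was found in 84 members (38.0%, against 3.41% of the excitatory cells) at a mean of 1.13 to 1.72, and *Slc32a1*, the vesicular GABA transporter, in 72 (32.6%). *Gad1* and *Slc32a1* did not pass against either class. All cells of the *Sp9* *Gad2* class were chosen to hold a *Gad2* UMI, against 55.7% of members. The part of that choice in the comparison of GABA genes was not tested. *Gad2*, the other GABA-synthesising enzyme, was higher than in the *Htr3a* or *Nr2f2* cells (0.54, adjusted p = 0.0246), a call that was lost under 9 of 14 alternatives (adjusted p from 0.000382 to 0.751). Of 11 tested genes of this list 1 was higher and 1, *Gabra2*, lower (median 0.42; 5 had an unadjusted p under 0.05 in limma). *Gabra2* turned to 0.0115 without the cells holding both *Neurod2* and *Neurod6* and to 0.0804 with at least 2 *Dlx* genes. Of 10 tested against the *Sp9* *Gad2* cells none passed (median 0.45; 2 had an unadjusted p under 0.05 in limma). *Slc12a5*, the chloride exporter of mature neurons, had no UMI in 221 members, which by a limit of 3 counts allows a share of cells with a UMI of up to 1.36%.

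Of 26 tested synapse, receptor and channel genes, 4 were higher and 3 lower than in the *Htr3a* or *Nr2f2* cells (median -0.04). Of 25 tested, 3 were higher and 1 lower than in the *Sp9* *Gad2* cells (median 0.23). In the first comparison the *Syt1* and *Rab3a* calls were each lost under 9 of 14 alternatives, also without Het5 or Het9. In the second, *Ank3* was lost under 9 of 12, also without WT6, Het5 or Het9, and *Gria4* under 4 of 12. *Nrxn3*, a presynaptic adhesion gene, was 8.54, 8.86, 8.36 and 8.71 in the members, above every library of either class, the nearest being 7.49 in WT6 *Sp9* *Gad2* cells (0.59 and 0.58). The difference from the *Htr3a* or *Nr2f2* cells fell to 0.30 (adjusted p = 0.126) without the cells holding both *Neurod2* and *Neurod6* and to 0.11 (adjusted p = 0.800) with at least 2 *Dlx* genes, and that from the *Sp9* *Gad2* cells was 0.45 (adjusted p = 0.0576) without WT3. *Gria4* and *Gria1*, AMPA receptor subunits, were higher against the *Htr3a* or *Nr2f2* cells (1.33 and 1.99) and *Gria2* was lower (-1.07). The *Gria4* call was lost under 9 of 14 alternatives (adjusted p from 0.0115 to 0.367), also without Het5 or Het9, and *Gria2* was -0.50 (adjusted p = 0.221) without the *Neurod2* and *Neurod6* cells. *Gria1* was 1.17 (adjusted p = 0.235) with cells thinned. *Stmn2*, a growth-cone protein gene, was lower than in the *Sp9* *Gad2* cells (-0.65).

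Among the 10 largest increases against the *Htr3a* or *Nr2f2* cells, besides the genes above, were *Spats2l* (2.61), *Dlgap1*, a postsynaptic scaffold gene (2.45), *Sh3rf3* (2.26), *Tox2*, an HMG-box factor (2.17), and *Plcxd3* (2.17). Against the *Sp9* *Gad2* cells they were *St18*, a zinc-finger factor (2.46), *Pam*, the enzyme that amidates neuropeptides (2.32), *Lgi1*, a secreted synaptic protein gene (2.21), *Tgfb3*, a growth factor gene (2.11), and *Nav2* (2.03). *Spats2l*, *Dlgap1*, *Sh3rf3*, *Tgfb3* and *Nav2* were called higher against both classes. The largest decreases against the *Htr3a* or *Nr2f2* cells included *Fabp7* (-2.71), *Plpp3* (-2.57), *Neurod2* (-2.35), *Slc1a3* (-2.31), *Mfge8* (-2.19), *Lhx2* (-2.15), *Ppp2r2b* (-2.11) and *Sparc* (-2.08), of which several are expressed in glia. Without the *Neurod2* and *Neurod6* cells, *Neurod2* was -0.16, *Lhx2* -0.97 (adjusted p = 0.235) and *Ppp2r2b* -0.99 (adjusted p = 0.274), and with at least 2 *Dlx* genes *Lhx2* was -0.11, *Ppp2r2b* -0.79, *Fabp7* -1.07 and *Mfge8* -1.17, none of them passing. Against the *Sp9* *Gad2* cells they included *Zfhx3* (-3.39) and *Zfhx4* (-2.13), paired zinc-finger homeobox genes, *Flrt2*, an adhesion gene (-3.15), *Syt6*, a synaptotagmin (-3.04), *Zfp503* (-2.82), *Nefm*, a neurofilament gene (-2.38), and *Cdca8*, a mitotic gene (-2.17). *Flrt2* and *Cdca8* were lower against both.

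The summed level of 11 excitatory neuron markers was 0.813 to 3.63 UMIs per 10000 in the members, 5.68 to 9.93 in the *Htr3a* or *Nr2f2* cells and 0.623 to 1.59 in the *Sp9* *Gad2* cells. The 10 glial markers summed to 2.88 to 5.86, 8.75 to 17.9 and 5.21 to 7.16. Against the *Htr3a* or *Nr2f2* cells, 7 of 8 tested excitatory markers (median -1.84) and 5 of 8 glial markers (median -1.22) were lower. *Neurod2*, *Fabp7* and *Slc1a3* were among the 10 largest decreases. The *Bhlhe22* and *Fezf2* calls were each lost under 4 of 12 alternatives, also without WT3, WT6 or Het5. Without the cells holding both *Neurod2* and *Neurod6*, which removed 10 of the 221 members and left 44 of 61, 80 of 95, 46 of 60 and 58 of 71 cells of the comparison class in WT3, WT6, Het5 and Het9, 236 genes were called in place of 325, and 207 were shared. The part of excitatory and glial transcripts in the other differences from this class was not tested. Striatal projection neuron markers summed to 0.379 to 0.923 in the members and 4.51 to 6.73 in the *Sp9* *Gad2* cells, where 4 of 4 tested markers were higher than in the members, among them *Foxp1* (-2.87) and *Isl1* (-1.87). Another, *Foxp2* (-1.83), did not pass without WT6 (-1.37, adjusted p = 0.159) or with a pseudocount of 0.01. The 9 olfactory bulb neuroblast markers summed to 4.14 to 4.45 in the members, 8.36 to 11.3 in the *Htr3a* or *Nr2f2* cells and 17 to 28.9 in the *Sp9* *Gad2* cells. *Etv1* was the 1 marker of that list above both classes.

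Cycling markers were lower in the members, 4 of 7 tested against the *Htr3a* or *Nr2f2* cells (median -0.95) and 4 of 9 against the *Sp9* *Gad2* cells (median -0.92), all classes having been chosen at 0 *Top2a*. Against the first class the *Ccnb1* call was lost under 11 of 14 alternatives, also with any library left out, and *Cenpf* under 6 of 14, also without WT3 or Het5. Against the second, *Cenpf* was lost under 9 of 12, also without WT3, WT6 or Het5, and *Mcm2* under 5 of 12, also without WT6 or Het9. A UMI of *Mki67*, *Ube2c*, *Nusap1*, *Cdk1* or *Birc5* was held by 52 members, and no background share was taken for this set. *Mki67* by itself was in 2.71% of members and 7.33% of the excitatory cells, so such a UMI alone does not mark a cycling cell. *Ccnd2*, a D-type cyclin, was 14.5, 4.82, 14.2 and 8.61 in the members and 25 to 43.3 in the *Sp9* *Gad2* cells (-1.77). Oligodendrocyte markers summed to at most 0.135 in the members, with 3 of 5 at 0 in every library, and 4 of 6 Cajal-Retzius markers were at 0. The blood, immune, vascular and pigment list summed to 5.6, 77.4, 4.13 and 148 in WT3, WT6, Het5 and Het9, with globin transcripts of 1 cell in WT6 and 1 in Het9 making up the high values, those being the members with 100 or more globin UMIs. *Hba-a1* and *Hbb-bs* were called higher than in the *Htr3a* or *Nr2f2* cells (1.99 and 1.74) and did not pass against the *Sp9* *Gad2* cells. The 2 calls held under 12 and 13 of 14 alternatives, and the part of the globin-rich cells in them was not tested. None of the 5 or 6 tested stress and immediate early genes passed (1 had an unadjusted p under 0.05 in limma in each comparison).

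The members were not uniform. Grouped by the presence of a UMI, 55 cells had both *Nkx2-1* and *Lhx8* (24.9%), 69 *Nkx2-1* only (31.2%), 18 *Lhx8* only (8.14%) and 79 neither (35.7%). These groups were formed after the values were seen and are described without a test. Median depth was 4576, 3827, 3339 and 3549 UMIs in that order, highest in the cells with both genes, and the part of depth in this grouping was not tested. Cells with both genes made up 10 of the 54 members in WT3, 32.1% in WT6, 32.7% in Het5 and 3.23% in Het9, and Het9 was the library set apart. Cells with neither ranged from 27.3% to 41.9%.

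Other genes were unevenly spread over these groups. *Zic1*, a zinc-finger gene of septal and basal forebrain neurons, was present in 18 of the 55 cells with both genes (32.7%, 95% exact interval 20.7 to 46.7) and in 1 of the 79 with neither (1.27%). Split on *Lhx8* alone, *Zic1* was in 23 of 73 cells with it and 3 of 148 without it, and the share was higher with *Lhx8* in each library (23.1% against 4.88% in WT3, 48.4% against 2.00% in WT6, 15.4% against 0 of 29 in Het5, and 1 of 3 cells against 0 of 28 in Het9). *Nr2f2* was the reverse, in 29 of 148 cells without *Lhx8* and 0 of 73 with it, which by a limit of 3 counts allows a share of cells with a UMI of up to 4.11%. *Htr3a* was in 39 of 148 and 4 of 73. Of the excitatory cells 23.7% held *Nr2f2* and 12.3% *Zic1*, so neither gene is absent from the sort outside these lineages.

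*Maf* was present in 38 of the 79 cells with neither gene (48.1%) and 3 of the 55 with both (5.45%), *Nxph1* in 32 (40.5%) and 2 (3.64%), and *Erbb4* in 39 (49.4%) and 7 (12.7%). All 7 *Erbb4* cells with both genes came from WT6, at 7 of 26, with none among 10 in WT3, 18 in Het5 and 1 in Het9. *Zeb2* averaged 5.52 UMIs per 10000 in the 148 cells without *Lhx8* and 1.88 in the 73 with it, and was lower with *Lhx8* in all 4 libraries. *Npy* did not follow the same division, with 27 of 79 cells having neither gene (34.2%), 26 of 69 with *Nkx2-1* only (37.7%), 9 of 18 with *Lhx8* only and 7 of 55 with both (12.7%), 5 of these 7 from WT6. *Sox6* was in 42 of 69 cells with *Npy* and 64 of 152 without it. *Erbb4* was in 30 of 69 and 37 of 152, but in WT6, the largest library, the shares were 38.5% and 38.2%.

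**Figure D2:**
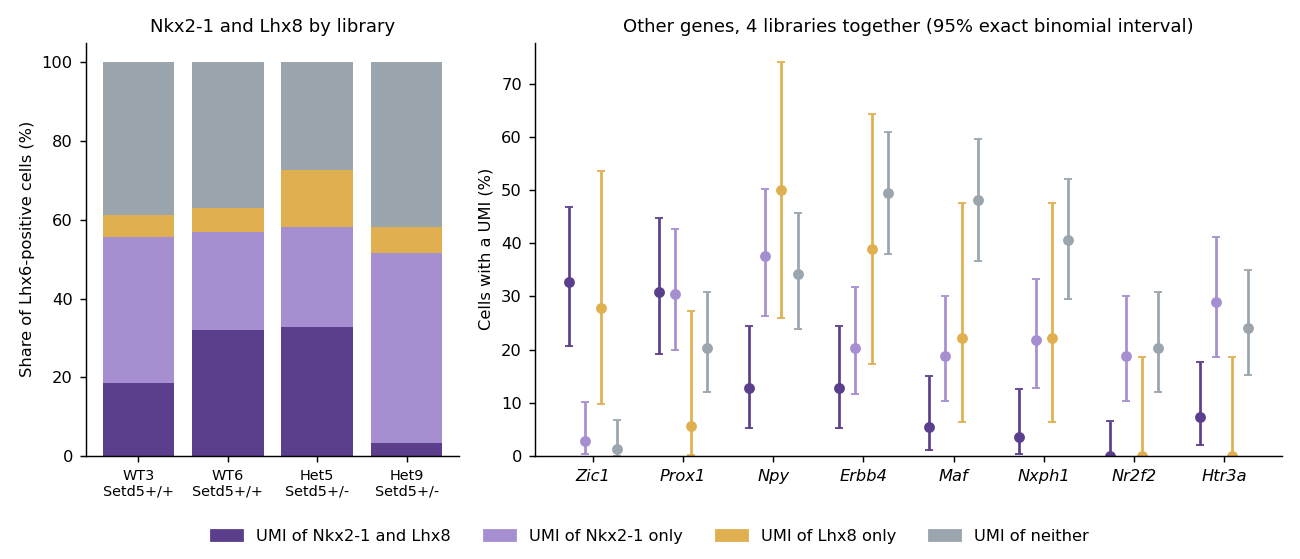
Left, share of the Lhx6-positive cells of each library (%) with a UMI of *Nkx2-1* and *Lhx8*, of 1 of them, or of neither. Right, share of the cells of each group with a UMI of 8 other genes (%), 4 libraries together, with 95% exact binomial intervals. *Zic1* was most frequent with *Lhx8*, at 32.7% of cells with both genes, whereas *Maf*, *Nxph1* and *Erbb4* were found in 40.5% to 49.4% of cells with neither.

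*Setd5* itself (chr6:113077365-113153435) was 1.70 and 0.929 UMIs per 10000 in the *Setd5*+/+ members and 0.475 and 0.518 in the *Setd5*+/- members. The genotypes did not overlap and the direction followed the labels, with a log2 difference of -1.19 (SE 0.35), but the gene did not pass across all genes (limma with Benjamini-Hochberg adjustment, adjusted p = 0.988). *Setd5* was detected in 29.4% of members, through 88 UMIs in all. Where the 3' reads of this gene lie relative to the part removed by the GFP allele was not assessed. Of 12 tested chromatin partners of *Setd5*, 0 passed against either of the other classes, with 1 at an unadjusted p under 0.05 in limma in each comparison.

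To see whether *Setd5* dosage went with the number of *Lhx6*-positive cells, their share was taken among cells without a barcode common to all libraries. The share was 3.87% in WT3 (95% exact interval 2.92 to 5.01), 4.27% in WT6 (3.40 to 5.28), 3.33% in Het5 (2.51 to 4.31) and 2.23% in Het9 (1.52 to 3.15). Both *Setd5*+/- libraries were below both *Setd5*+/+ libraries, with a mean difference of -1.29 percentage points. The exact two-sided permutation test gave p = 0.333, the smallest value that 2 libraries against 2 allow. The difference was -0.741 without Het9 and -1.83 without Het5. *Lhx6* cells with *Top2a*, outside the rule, differed by -0.826 points (exact p = 0.333). The *Htr3a* or *Nr2f2* cells differed by -0.316 (exact p = 1) and the *Sp9* *Gad2* cells by 0.421 (exact p = 0.667). Cells with any of the 4 *Dlx* genes were also a smaller part of both *Setd5*+/- libraries. They were 622 of 1397 in WT3, 924 of 1898 in WT6, 688 of 1654 in Het5 and 490 of 1389 in Het9. Among them the *Lhx6*-positive share was 8.68%, 8.77%, 7.99% and 6.33%, differing by -1.56 points (exact p = 0.333). Whether the lower share was particular to *Lhx6*-positive cells was not tested.

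**Figure D3:**
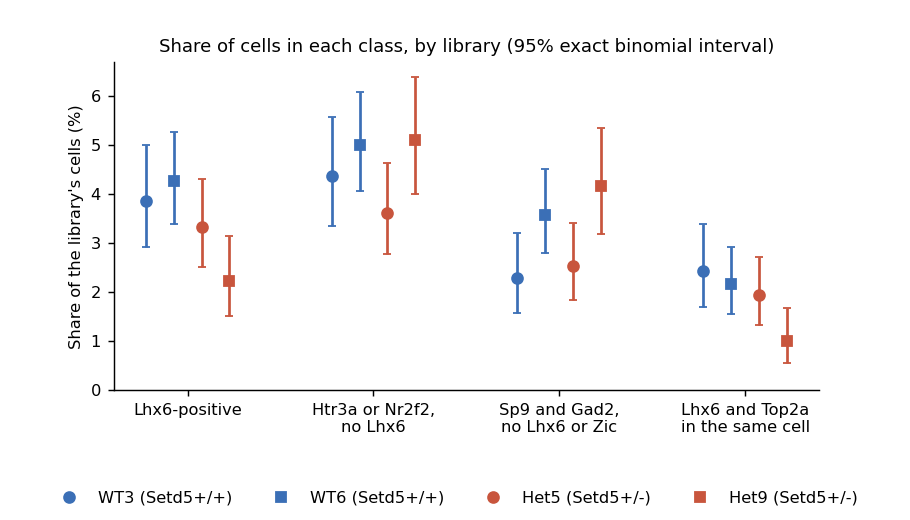
Share of each library's cells (%) in 4 classes, with 95% exact binomial intervals; blue points are Setd5+/+ and red Setd5+/- libraries. Lhx6-positive cells made up 3.87% and 4.27% of the Setd5+/+ and 3.33% and 2.23% of the Setd5+/- libraries, while the Htr3a or Nr2f2 cells and the Sp9 Gad2 cells overlapped between genotypes.

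Shares of members with a UMI of 13 subtype genes were compared in the same way. For 3 of them, *Htr3a*, *Prox1* and *Erbb4*, the genotypes did not overlap, each lower in the *Setd5*+/- libraries, against 32.1% of all 7559 tested genes. *Erbb4* was in 29.6% and 38.3% of *Setd5*+/+ members and 25.5% and 19.4% of *Setd5*+/- members, and thinned to 3000 UMIs in 28.3%, 24.6%, 21.3% and 20%. Its mean difference of -11.5 points was -5.80 after thinning and -7.22 without WT6, and that of *Htr3a*, -9.95 points, was -2.86 without WT3 and -17.1 without WT6. The share with *Nkx2-1* was 55.6%, 56.8%, 58.2% and 51.6%. With cells thinned to 3000 UMIs, *Prox1* overlapped and 4 genes did not. The 32.1% over all genes is for full depth, and no such share was taken for thinned cells. The 4 genes were *Htr3a* and *Erbb4*, *Nkx2-1*, at 54.3%, 56.9%, 53.2% and 50%, and *Ackr3*, at 6.52%, 9.23%, 21.3% and 15%. *Ackr3* was higher in the *Setd5*+/- libraries. The share with *Npy* was 33.3%, 32.1%, 23.6% and 38.7%. No share can pass at 2 libraries against 2.

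Of 7559 genes tested between genotypes in the *Lhx6*-positive cells, 3 passed (0.0397%), and 309 had an unadjusted p under 0.05. All 3 lie on the sex chromosomes. *Xist*, the X-inactivation RNA of females, stood at 24.5 UMIs per 10000 in WT3 and 29.0 in WT6, with no UMI in either *Setd5*+/- library (adjusted p = 4.01e-13). *Tsix*, on its opposite strand, stood at 1.16 and 1.27, again with none in *Setd5*+/- (adjusted p = 0.0012). *Eif2s3y*, on the Y chromosome, had no UMI in the *Setd5*+/+ libraries and levels of 0.843 and 1.25 in the *Setd5*+/- libraries (adjusted p = 0.00367). The *Eif2s3y* call was lost under 5 of 13 alternatives (adjusted p up to 0.597), also without Het5 or Het9, and the *Tsix* call under 3 of 13 (up to 0.263), also without WT3 or WT6. Both *Setd5*+/+ libraries thus read as female and both *Setd5*+/- libraries as male, so genotype and sex cannot be told apart in any comparison of genotypes here. Without the genes of X and Y, limma called 0 of 7291 genes, and 296 had an unadjusted p under 0.05.

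With all 4 libraries, no gene of the other lists passed between genotypes. The median log2 difference was 0.02 for 32 tested transcription factors, -0.07 for 31 migration genes, -0.16 for 13 GABA genes, -0.27 for 6 subtype genes, -0.07 for 24 synapse genes and -0.10 for 12 chromatin partners of *Setd5*, against -0.02 for all genes tested. *Hdac3*, a deacetylase that binds the SETD5 protein, was 1.10, 1.04, 0.998 and 0.991. Genes that the study names for 1 of its cell clusters, chosen there on these same libraries and so no independent evidence, had a median of -0.19 over 14 tested, with 4 at an unadjusted p under 0.05. *Kitl*, the ligand of the KIT receptor, was 0.265 and 0.747 in *Setd5*+/+ members and 0.0443 and 0 in *Setd5*+/- members, with 34 UMIs in all (log2 difference -2.21, SE 0.60, adjusted p = 0.988). *Efna5* was 0.930 and 0.993, and 0.334 and 0.506 (-1.05). *Lhx8* and *Zic1* had log2 differences of -1.15 and -1.10 that did not pass. For both, the mean level was lowest in Het9, and that of Het5 lay between the *Setd5*+/+ libraries. As shares of members with a UMI in WT3, WT6, Het5 and Het9, *Zic1* stood at 9.26%, 19.8%, 7.27% and 3.23%, without overlap between genotypes. Such separation was found for 32.1% of all tested genes. The *Lhx8* shares, 24.1%, 38.3%, 47.3% and 9.68%, overlapped. Listed and globin genes were called with a library left out, *Lhx8*, *Ccnd2*, *Hba-a1* and *Hbb-bs* without WT3, and *Sst*, *Hba-a1*, *Hba-a2*, *Hbb-bs* and *Hbb-bt* without WT6. The median was 0.51 for 4 tested excitatory markers, 0.65 for 6 cycling markers, -0.77 for 5 olfactory bulb neuroblast markers and -0.36 for 6 stress genes, also with no gene passing, and the part of these in the genotype comparison was not tested.

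The genotype effect in *Lhx6*-positive cells was then set against that in the *Htr3a* or *Nr2f2* cells by a test of the difference. Of 7763 genes 6 passed (0.0773%). *Npy* did not pass between genotypes in the members (0.29, adjusted p = 0.988), while the *Htr3a* or *Nr2f2* cells had 1.89 and 0.410 in the *Setd5*+/+ and 0.0911 and 0.0209 in the *Setd5*+/- libraries (difference of effects 3.02, SE 0.39, adjusted p = 9.46e-11). Without WT3, the library with the highest value, the difference was 2.19 and did not pass (adjusted p = 0.469), and with UMIs summed over cells it was 2.39 (adjusted p = 0.0625). The genotype effect within the *Htr3a* or *Nr2f2* cells alone was not tested. *Nkx2-1* had an effect of 0.01 in the members, with 0.563 and 1.11 against 0.0682 and 0.252 in the comparison class (1.89, adjusted p = 0.00277), and it was lost under 7 of 11 alternatives. *Nxph1* did not pass (2.16, adjusted p = 0.0678). For *Magi1*, a synaptic scaffold gene, the members went from 0.609 and 0.479 to 0.253 and 0 and the comparison class from 0.337 and 0.312 to 0.731 and 0.976 (-2.93, adjusted p = 0.00277), a call lost under 8 of 11 alternatives.

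**Figure D4:**
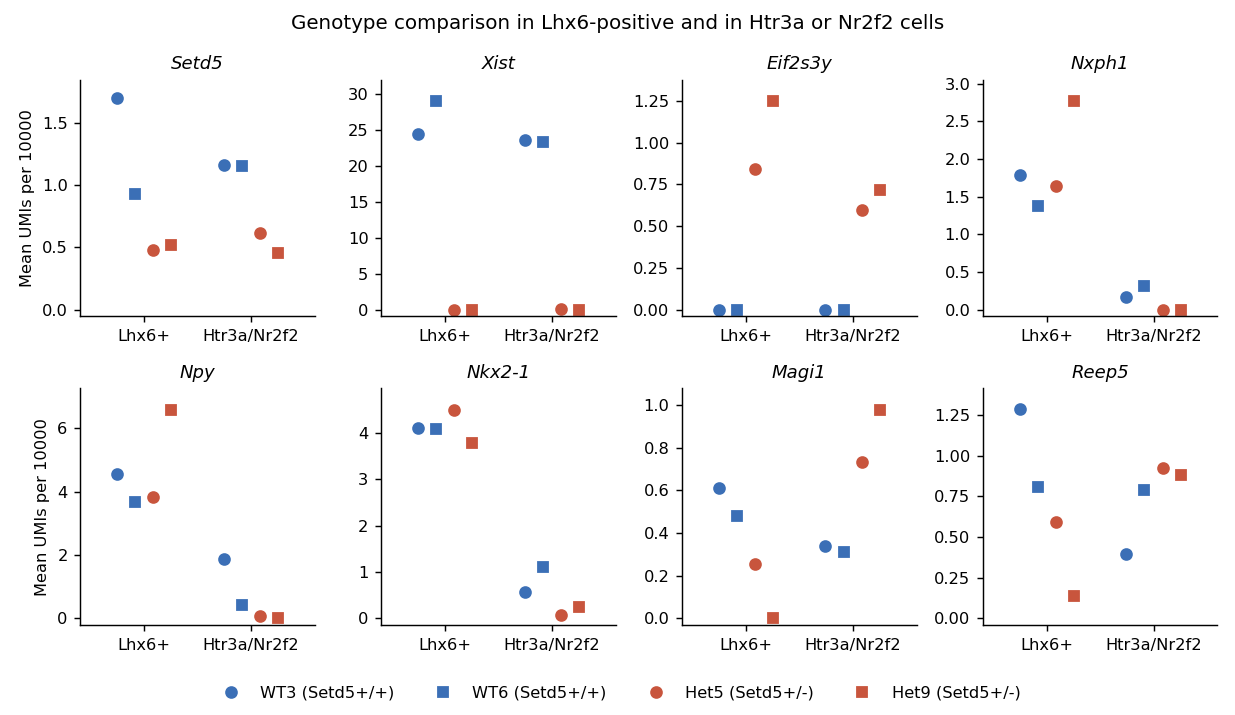
Mean UMIs per 10000 (vertical axis) of 8 genes in each library for Lhx6-positive cells and Htr3a or Nr2f2 cells without Lhx6; blue points are Setd5+/+ and red Setd5+/- libraries. *Xist* was at 24.5 and 29.0 in the Setd5+/+ members and 0 in the Setd5+/- members, *Setd5* was lower in both Setd5+/- libraries of either class, and *Npy* and *Nkx2-1* did not overlap between genotypes in the Htr3a or Nr2f2 cells and overlapped in the members.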

How the data were processed

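Single-cell 3' RNA-Seq libraries of 4 fetuses were aligned and aggregated by the authors with Cell Ranger 2.1 and handled with Seurat 2.3.0 on build mm10, per the labels and the submitters' processing notes. The deposited table holds, for 16600 genes and 6562 cells, the natural log of 1 + UMIs per 10000, as made by the authors. Undoing the log and dividing each cell by its smallest value above 0 returned whole UMIs for 100% of 14848520 values (tolerance 0.001). Cells carry library prefixes that show genotype but no replicate number.

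Levels were averaged over the cells of a class in each library, and log2(mean + 0.1) was fitted with limma 3.58.1 (R 4.3.3, trended variance, Benjamini-Hochberg adjustment, threshold 0.05) for genes averaging at least 0.1, with library as a block between classes. The fit was tested on simulated data. Library, hence fetus, was the replicate. Shares were compared by exact two-sided permutation tests, with Clopper-Pearson intervals of 95%. Background shares came from 1787 cells with *Neurod6* and *Bcl11b*. Genes were named when they chose the members, stood in a list, or were among the 10 largest changes in each direction among calls that went the same way in every library or did not overlap between genotypes. Globin genes, the groups by *Nkx2-1* and *Lhx8*, and *Reep5*, *Ttr* and *Hba-a2* were added after their values were seen. The members and lists were chosen with earlier results of these data known. Gene coordinates are those of GENCODE M21 (GRCm38), which placed 16051 of the genes. *Xist* and *Tsix* overlap, and how shared reads were counted was not given in the sources used here. Results for some listed genes are not reported here.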

Additional observations from a re-analysis of the deposited data

Results flagged for a closer look

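In all, 6 genes had a genotype effect in the *Lhx6*-positive cells that differed from that in the *Htr3a* or *Nr2f2* cells by a limma test of the difference (adjusted p under 0.05). *Npy* differed by 3.02 and *Nkx2-1* by 1.89 on the log2 scale, with levels of 0.0911 and 0.0209 for *Npy* and 0.0682 and 0.252 for *Nkx2-1* in the *Setd5*+/- libraries of the comparison class. *Magi1* differed by -2.93 and *Reep5* by -2.07, and *Reep5* was 1.29, 0.806, 0.592 and 0.136 in the members of WT3, WT6, Het5 and Het9. The *Reep5* call was lost under 8 of 11 alternatives (adjusted p up to 0.999), also without WT3 or Het9. *Ttr*, a choroid plexus gene, differed by -3.44, with a level of 27.9 UMIs per 10000 in the Het9 comparison cells and at most 0.096 in any library of the members. Its call was lost under 7 of 10 alternatives (adjusted p up to 0.998), also without WT3 or WT6. *Hba-a2* differed by 1.41, and 1 member held 1990 of the 2876 *Hba-a2* UMIs of the members. For both *Ttr* and *Hba-a2* the differences between the classes overlapped between the libraries of the genotypes. Sex went with genotype in these libraries, so they cannot be told apart.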

How the results depend on the processing

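No paired analysis was possible because, between genotypes, the cell-name prefixes of the libraries carry no replicate number of the labels (classes were compared within libraries). The planned tests across all genes between members with and without *Npy* or *Sst* were not run, since some libraries held under 15 cells of a kind. The share of *Lhx6*-positive cells was lower in *Setd5*+/- under every alternative (-0.741 to -1.83 points over libraries left out). Genotype calls (3) became 1 with a pseudocount of 0.01, 0 without X and Y genes, and 2 to 9 over libraries left out, 9 without WT3 and 8 without WT6. Against the *Htr3a* or *Nr2f2* cells, 325 calls became 193 with cells thinned to 3000 UMIs, 140 with at least 2 *Dlx* genes, and 191 to 304 over libraries left out (191 without Het5). Against the *Sp9* *Gad2* cells, 210 became 135 with a pseudocount of 0.01 and 136 to 197 over libraries left out (136 without WT6). Calls on the difference of effects (6) became 2 with a pseudocount of 0.01, 1 with no filter, 0 with UMIs summed (349 at an unadjusted p under 0.05 in limma), 1 with cells thinned, 3 without *Neurod2* and *Neurod6* cells, and 2 to 24 over libraries left out (2 without WT3, 11 without WT6, 24 without Het5, 3 without Het9). Subtype genes not overlapping (3) became 4 to 10 over libraries left out (7 without WT6, 10 without Het5, 9 without Het9). The cause was not tested, but fewer libraries make overlap less likely by construction.

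Against the *Htr3a* or *Nr2f2* cells, 5 named genes reversed. Without *Neurod2* and *Neurod6* cells, *Gabra2* was 0.0115, *Id2* 0.56, *Nrp1* 0.90 and *Neurod6* 0.27, and with at least 2 *Dlx* genes *Gabra2* was 0.0804, *Id2* 0.38, *Nrp1* 0.68 and *Neurod1* 0.11. In the difference of effects *Hba-a2* was -0.89 to 3.71 over libraries left out, being -0.09 without WT3 and -0.89 without Het9. The other alternatives for named genes kept their direction, 284 of them without passing.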
